A study of Mus musculus with 23 samples.

Results

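The endoplasmic reticulum (ER) folding and unfolded protein response genes are a set of 35 mouse genes whose products fold, modify, export or discard the proteins that a liver cell secretes. They were picked by name from the 37074 gene names on a one-colour Agilent expression array, and each gene was read from 1 probe, the brightest one on average over all arrays. On the array 34 of the 35 genes passed the filter on dim probes, each with a probe well above background on all 23 arrays, and Fkbp11, a prolyl isomerase of the ER, did not, since its only probe was well above background on 2 of 23 arrays. Livers came from male wild-type (WT) and Pxr-/- mice that received either corn oil (CONT) or pregnenolone 16α-carbonitrile (PCN), a steroid that activates the mouse pregnane X receptor (PXR), for which Nr1i2 is the gene. The 4 groups were WT CONT (6 mice), WT PCN (5 mice), Pxr-/- CONT (6 mice) and Pxr-/- PCN (6 mice). PCN was given intraperitoneally in corn oil at 100 mg/kg each day for 4 days, the controls had corn oil alone, and the mice were killed in the light phase 6 h after the last injection. They had free access to food, and the labels call their state fed where the study's text calls it semi-fasted. The WT mice, C57BL/6J, were bought at 6 weeks of age, whereas the Pxr-/- mice, backcrossed to the same background, were bred for years in the study's own facility, so that genotype and colony cannot be told apart.

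Hepatocytes secrete most of the plasma proteins and pass them through the ER, where the Hsp70 chaperone BiP (Hspa5), the Hsp90 chaperone Grp94 (Hsp90b1), the lectin chaperones and the disulfide isomerases fold them. When unfolded protein builds up, the sensors IRE1 (Ern1), ATF6 (Atf6) and PERK signal to the nucleus. IRE1 splices the messenger of Xbp1, ATF6 is cut to release a transcription factor, and both XBP1 and ATF6 then raise chaperone and ER-associated degradation (ERAD) genes, many of them through a promoter sequence called the ER stress element. The PERK arm slows translation and acts through ATF4 and CHOP.

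Each of the ER genes was tested for a change with PCN. A gene was called changed at a Benjamini-Hochberg adjusted p of at most 0.05 in the limma fit over all probes together with a fold above 1.5. In WT liver PCN lowered 1 of the 34 genes, Sel1l, and raised none, against 2.39% and 3.78% of all 21047 genes measured. In Pxr-/- liver PCN raised 2 of 34, Xbp1 and Dnajb9, and lowered none, against 1.43% and 0.86% of all genes. Below the limits, 26 of 34 changes in WT and 23 of 34 in Pxr-/- liver were negative on the log2 scale, where 54.4% and 53.1% of all genes were. The medians of the 34 genes were -0.16 and -0.14, and those of all genes -0.02 and -0.01. The WT median was -0.10 with the processed signal, -0.09 with median scaling and -0.07 in washing batch 2 alone, and in the deposited log2 values it was 0.06, where all genes had 0.11. In 20 genes the sign was negative in both genotypes, in 5 positive in both, in 6 negative in WT and positive in Pxr-/- liver, and in 3 the reverse.

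**Figure D1:**
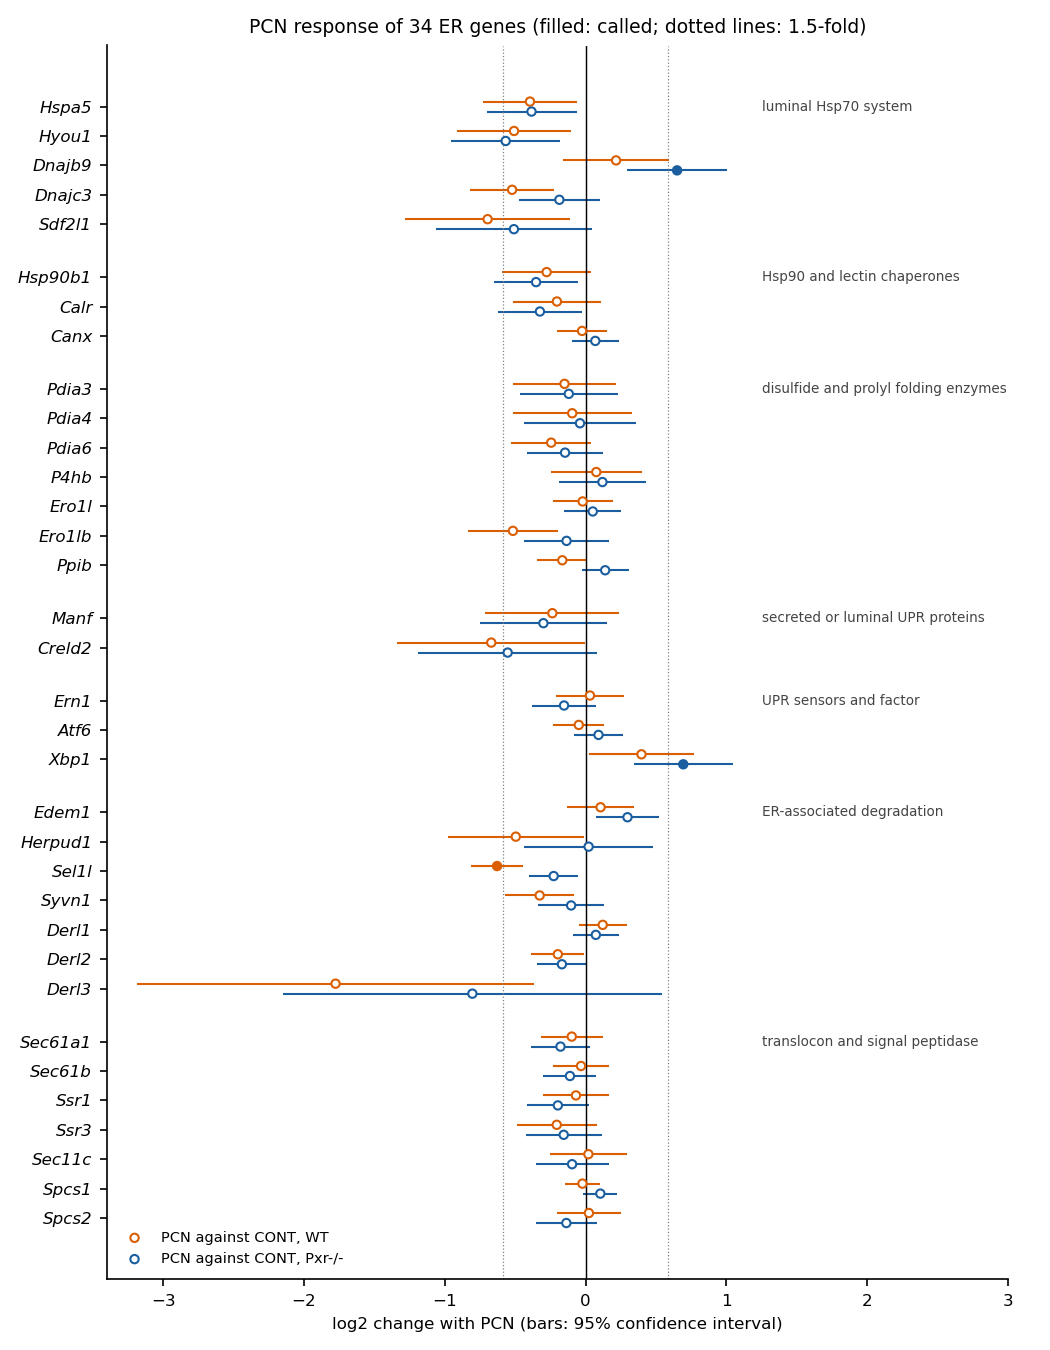
Log2 change with PCN (x axis) for each of the 34 ER genes (y axis, in blocks by role), in WT mice (orange) and Pxr-/- mice (blue). Points are limma estimates and bars 95% confidence intervals; filled points passed both limits, and dotted lines mark 1.5-fold. The filled points are Sel1l in WT (-0.63) and Xbp1 (0.69) and Dnajb9 (0.65) in Pxr-/- mice.

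The mice of 1 group differed widely in these genes. The pooled within-group SD of the 34 genes had a median of 0.25 log2 units, against 0.18 for all genes, and reached 1.39 for Derl3, 0.57 for Sdf2l1 and 0.57 for Creld2. WT CONT replicate 1 had 28 of the 34 genes above their WT CONT median and replicate 6 had 29, whereas replicates 2 and 4 had 9 and 6. Among the PCN-treated WT mice, replicate 4 stood apart, with 25 of 34 genes above the WT CONT median, whereas the other 4 mice had between 4 and 9. No Pxr-/- mouse had over 16 genes above that median with corn oil, or over 11 with PCN. Changes in WT mice without replicate 4 are given for the genes whose call or size this mouse moved.

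**Figure D2:**
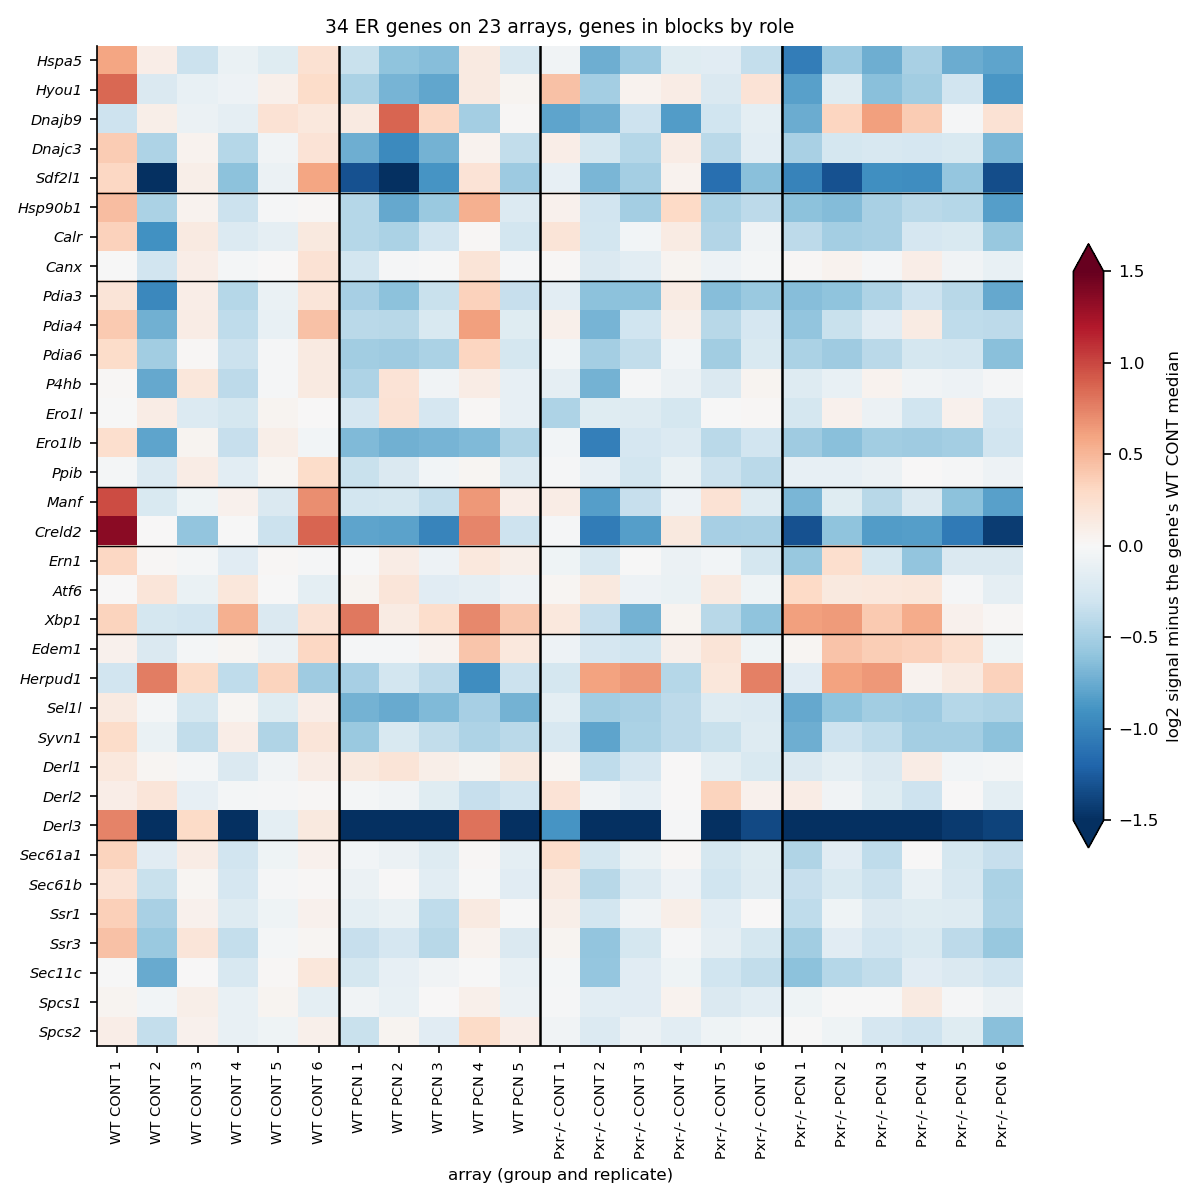
Log2 signal of the 34 ER genes (rows, in blocks by role) on the 23 arrays (columns, 4 groups), each minus the gene's median over the WT CONT arrays, with the colour scale ending at 1.5 log2 units either way (Derl3 runs past it on several arrays). WT CONT replicates 1 and 6 and WT PCN replicate 4 are mostly red, and the Pxr-/- PCN arrays, with 3 to 11 of the 34 genes above that median, mostly blue. Most Pxr-/- CONT arrays (2 to 16 genes, with the same group median of 5.5) and the other WT PCN arrays (4 to 9 genes) lay low as well.

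The treatment check behaved differently in the genotypes. Cyp3a11, a drug-metabolising P450 that PXR induces, had a log2 signal of 13.62 ± 0.42 (SD, n = 6) in WT CONT and 17.16 ± 0.16 (SD, n = 5) in WT PCN livers, a change of 3.55 ± 0.23 (SE, limma adjusted p = 4.12e-10). In Pxr-/- livers its change was 0.31 ± 0.22 (SE, adjusted p = 0.431), and the difference between the genotypes was 3.24 (adjusted p = 1.23e-06). The Nr1i2 probe did not separate the genotypes: its log2 signal ranged from 10.63 to 12.15 in WT CONT and from 10.16 to 12.08 in Pxr-/- CONT livers, with a change of -0.03 ± 0.28 (SE, adjusted p = 0.977), and whether it lies in the deleted part of the gene was not tested.

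The Hsp70 system of the ER lumen holds BiP (Hspa5), its nucleotide exchange factor Hyou1, the J-domain proteins Dnajb9 and Dnajc3, and Sdf2l1, which works with J-domain proteins. Hspa5 is the chaperone that the sensors themselves bind. Its log2 signal ran from 15.27 to 16.18, with a median of 15.59, in WT CONT livers, and was 15.25, 14.98, 14.95, 15.72 and 15.35 in the 5 WT PCN livers. In Pxr-/- livers it ran from 14.86 to 15.54 (median 15.32) with corn oil and from 14.55 to 15.11 (median 14.85) with PCN. PCN groups lay lower in both genotypes but overlapped their controls, with 3 of 5 WT PCN and 4 of 6 Pxr-/- PCN livers below every control of their genotype. The changes were -0.40 ± 0.16 in WT and -0.38 ± 0.15 in Pxr-/- mice (SE), and neither passed (adjusted p = 0.0824 and 0.141). The 3 probes of Hspa5 gave -0.40, -0.38 and -0.37 in WT mice.

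Dnajb9 (ERdj4), a J-domain cofactor of BiP that also takes part in ERAD, rose with PCN in Pxr-/- livers. Its log2 signal there ran from 9.92 to 10.61 (median 10.23) with corn oil and from 10.01 to 11.37 (median 11.02) with PCN, and 5 of 6 PCN livers lay above every control. The change was 0.65 ± 0.17 (SE, adjusted p = 0.026), a 1.57-fold rise. In WT livers Dnajb9 ran from 10.43 to 10.96 (median 10.75) with corn oil and was 10.88, 11.62, 11.06, 10.24 and 10.76 with PCN, a change of 0.22 ± 0.18 (SE) that did not pass (adjusted p = 0.422). Without WT PCN replicate 4 it was 0.34 (adjusted p = 0.185). Its controls lay lower in Pxr-/- mice, with a Pxr-/- CONT against WT CONT change of -0.51 ± 0.17 (SE, adjusted p = 0.256) that did not pass. The difference of its PCN effects between genotypes was -0.43, with a 95% confidence interval from -0.95 to 0.08 (adjusted p = 0.447), so the rise was not shown to be particular to Pxr-/- mice. The call of Dnajb9 in Pxr-/- mice did not hold within 1 washing batch (0.74 in batch 1, adjusted p = 0.289, and 0.56 in batch 2, adjusted p = 0.112), and its dimmer probe gave 0.35. It was also lost when Pxr-/- PCN replicate 3 (0.50, adjusted p = 0.0666) or 4 (0.64, adjusted p = 0.0602) or Pxr-/- CONT replicate 1 (0.63, adjusted p = 0.0553) was left out, and with no term for washing batch (0.65, adjusted p = 0.062).

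The other members of this system lay lower with PCN. Dnajc3, an ER co-chaperone also known for damping PERK, had a change of -0.52 ± 0.14 in WT mice (SE, adjusted p = 0.012), which missed the 1.5-fold limit, and of -0.19 in Pxr-/- mice. Hyou1 had -0.51 and -0.57 (adjusted p = 0.0656 and 0.0711), and its change in Pxr-/- mice passed without Pxr-/- CONT replicate 2 (-0.70, adjusted p = 0.0237) or Pxr-/- PCN replicate 2 (-0.67, adjusted p = 0.0463), while its 4 probes disagreed there, from -0.57 to 0.47. Sdf2l1 had -0.70 and -0.51 (adjusted p = 0.078 and 0.278), with SDs within groups of 0.28 to 0.76. Its log2 signal in the WT PCN livers was 10.65, 10.28, 11.08, 12.17 and 11.42, so replicate 4 was the highest again.

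**Figure D3:**
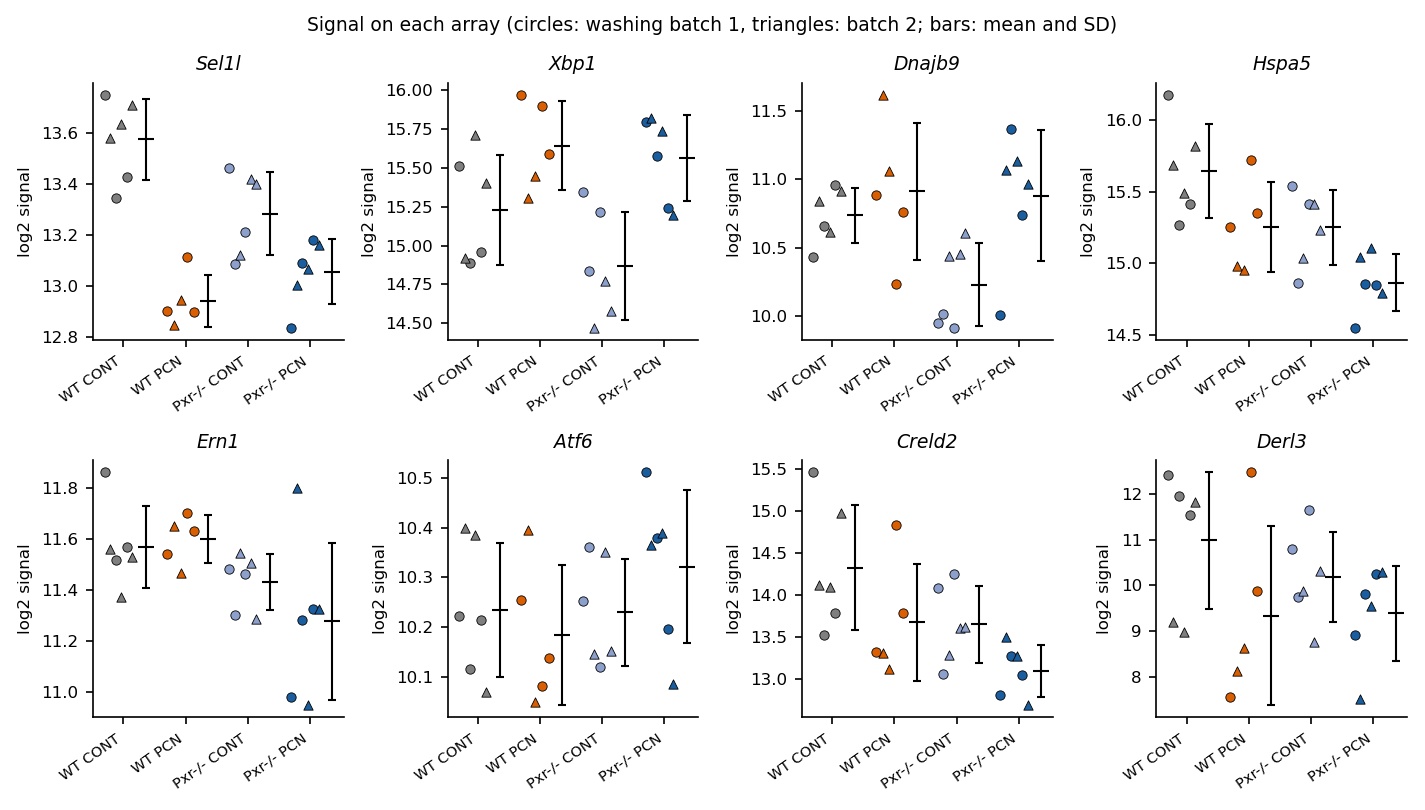
Log2 signal (y axis) of 8 ER genes on each array, by group (x axis), with circles for washing batch 1 and triangles for batch 2, and the mean and SD beside the points. Sel1l is lower in all 5 WT PCN livers than in any WT CONT liver, Xbp1 lies higher with PCN in both genotypes, and the WT PCN liver at the top of the Creld2 and Derl3 panels is replicate 4.

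Of the ERAD genes, which recognise misfolded proteins and pull them back to the cytosol, Sel1l fell in WT mice. Sel1l is the scaffold of the Hrd1 ubiquitin ligase complex, and its probe lies at chr12:93045073-93045132 of mm9 on the minus strand. Its log2 signal ran from 13.35 to 13.75 (median 13.61) in WT CONT livers and was 12.90, 12.85, 12.94, 13.11 and 12.90 in WT PCN livers. These groups did not overlap, as in 1 of the 34 genes in WT mice and 0 of 34 in Pxr-/- mice, against 12.4% and 3.15% of all genes. The change was -0.63 ± 0.09 (SE, adjusted p = 4.39e-05), and with 1 array left out in turn it stayed called each time, between -0.68 and -0.59. In Pxr-/- livers Sel1l ran from 13.09 to 13.46 (median 13.31) with corn oil and from 12.84 to 13.18 (median 13.08) with PCN, and the groups overlapped, with a change of -0.23 ± 0.08 (SE, adjusted p = 0.112). The difference between the genotypes was -0.40, with an interval from -0.66 to -0.15, and did not pass over all probes (adjusted p = 0.111). The size in WT mice lay close to the 1.5-fold limit and fell below it under median scaling (-0.57), with the processed signal (-0.56), in the deposited table (-0.43) and in washing batch 1 alone (-0.54), each with an adjusted p of at most 0.0299. The dimmer probes of Sel1l gave -0.47 and -0.29.

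Syvn1, the Hrd1 ligase that Sel1l holds, had a change of -0.33 ± 0.12 in WT mice (SE, adjusted p = 0.0484), below the fold limit, and -0.10 in Pxr-/- mice. Herpud1, which helps to assemble that complex, had -0.50 in WT (adjusted p = 0.133) and 0.02 in Pxr-/- mice (adjusted p = 0.973). Derl3, a derlin of the same pathway, had the widest spread of the 34 genes. Its log2 signal ran from 8.99 to 12.41 in WT CONT livers and was 7.56, 8.13, 8.63, 12.48 and 9.89 in WT PCN livers, a change of -1.78 ± 0.68 (SE, adjusted p = 0.0634). With WT PCN replicate 4 left out, Derl3 passed, at -2.43 ± 0.61 (SE, adjusted p = 0.0073), and it also passed without WT CONT replicate 2 (-2.00) or 4 (-2.05). In Pxr-/- mice Derl3 had -0.80 (adjusted p = 0.514). Edem1, a lectin of the pathway, had 0.11 and 0.30 (adjusted p = 0.548 and 0.103), and Derl1 (0.12 and 0.07) and Derl2 (-0.20 and -0.17) had intervals within 1.5-fold in both genotypes.

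Without WT PCN replicate 4, PCN lowered 6 of the 34 genes in WT mice, against 2.34% of all genes measured. These were Derl3 (-2.43), Creld2 (-0.94), Sdf2l1 (-0.90), Sel1l (-0.68), Dnajc3 (-0.64) and Hyou1 (-0.61), none rose, and 28 of 34 changes were negative, with a median of -0.23. Hspa5 then had -0.51 ± 0.16 (SE, adjusted p = 0.0287), Ero1lb -0.50 (adjusted p = 0.0403), Hsp90b1 -0.44 (adjusted p = 0.0179) and Pdia6 -0.38 (adjusted p = 0.034), all below the fold limit, while Syvn1, at -0.33, no longer passed on its adjusted p (0.0746). That this mouse was left out was decided after its high values in these same genes had been seen. Lower WT changes over the set were thus built into the choice, and the 6 of 34 against 2.34% is no test. WT CONT replicates 1 and 6, with 28 and 29 of the 34 genes above the WT CONT median, were kept. What set WT PCN replicate 4 apart was not tested. With all 5 WT PCN mice and no fold limit, 4 of 34 genes were lower at an adjusted p of at most 0.05 (Sel1l, Dnajc3, Ero1lb and Syvn1), against 12.4% of all genes.

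Of the sensors and their transcription factor, Xbp1 lay higher with PCN in both genotypes. In Pxr-/- livers its log2 signal ran from 14.47 to 15.34 (median 14.80) with corn oil and from 15.20 to 15.82 (median 15.66) with PCN, and 4 of 6 PCN livers lay above every control. The change was 0.69 ± 0.17 (SE, adjusted p = 0.0179), a 1.62-fold rise. In WT livers Xbp1 ran from 14.89 to 15.71 (median 15.18) with corn oil and was 15.97, 15.31, 15.45, 15.90 and 15.59 with PCN. This change of 0.40 ± 0.18 (SE) did not pass with the brightest probe (adjusted p = 0.116). Both dimmer probes of Xbp1 did pass in both genotypes, with 0.70 and 0.72 in WT (adjusted p = 0.0114 and 0.0166) and 0.92 and 0.97 in Pxr-/- mice (adjusted p = 0.00512 and 0.00647). They lie at chr11:5424970-5425029 and chr11:5424869-5424928 of mm9, and the brightest at chr11:5425816-5425875. The difference of the PCN effects between genotypes was -0.30, with an interval from -0.81 to 0.22 (adjusted p = 0.635). Control livers of Pxr-/- mice lay lower in Xbp1 too, with means of 14.87 ± 0.35 in Pxr-/- CONT and 15.23 ± 0.35 in WT CONT (SD). These groups overlapped, and the change between them did not pass. Of the 6 Pxr-/- CONT livers 4 lay below every WT CONT liver. With PCN the means were 15.56 ± 0.28 in Pxr-/- and 15.64 ± 0.29 in WT livers (SD).

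Within washing batches the Xbp1 change was uneven: 0.70 in batch 1 and 0.03 in batch 2 in WT mice, and 0.41 and 0.98 in Pxr-/- mice, where neither batch alone passed (adjusted p = 0.406 and 0.0724). Without Pxr-/- PCN replicate 4 the change of Xbp1 in Pxr-/- mice was 0.64 (adjusted p = 0.0533). The values are total Xbp1 signal, and splicing of its messenger was not measured.

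The sensors themselves moved little. Ern1 (IRE1) ran from 11.37 to 11.86 (median 11.55) in WT CONT livers and was 11.54, 11.65, 11.47, 11.70 and 11.63 in WT PCN livers, and it ran from 11.29 to 11.55 (median 11.47) in Pxr-/- CONT and from 10.95 to 11.80 (median 11.30) in Pxr-/- PCN livers. Groups overlapped in both genotypes, with changes of 0.03 (interval -0.21 to 0.27) and -0.15 (interval -0.38 to 0.07). Atf6 ran from 10.07 to 10.40 (median 10.22) in WT CONT livers and was 10.26, 10.40, 10.05, 10.08 and 10.14 with PCN, and it ran from 10.12 to 10.36 (median 10.20) and from 10.09 to 10.51 (median 10.37) in Pxr-/- livers without and with PCN. Its changes were -0.05 (interval -0.23 to 0.13) and 0.09 (interval -0.08 to 0.26). All 4 of these intervals lay within 1.5-fold.

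Among the Hsp90 and lectin chaperones, Hsp90b1 (Grp94) had changes of -0.28 and -0.35 in WT and Pxr-/- mice (adjusted p = 0.204 and 0.152), Calr (calreticulin) -0.20 and -0.32 (adjusted p = 0.359 and 0.185), and Canx (calnexin) -0.03 and 0.07. Canx was the steadiest of them, with intervals from -0.20 to 0.15 and from -0.10 to 0.24. The disulfide isomerases Pdia3, Pdia4, Pdia6 and P4hb had changes between -0.24 and 0.12 over both genotypes, and none passed. Without WT PCN replicate 4 the WT changes of Hsp90b1 and Pdia6 were those given above, and Pdia3 had -0.28 and Pdia4 -0.27 (adjusted p = 0.276 and 0.364). Of the pair of oxidases that reoxidise them, Ero1lb had -0.52 ± 0.15 (SE, adjusted p = 0.019), under the fold limit, in WT mice, while Ero1l had -0.02 with an interval from -0.24 to 0.19. Without WT CONT replicate 2, Ero1lb passed in WT mice (-0.64, limma adjusted p = 0.00227). In Pxr-/- livers the mean log2 signals with corn oil and with PCN were 9.75 and 9.61 for Ero1lb and 10.45 and 10.50 for Ero1l. The difference between those oxidases was not tested. Ppib, a prolyl isomerase, had -0.17 in WT and 0.14 in Pxr-/- mice, and its difference of -0.30 between genotypes did not pass (adjusted p = 0.221).

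Creld2 and Manf are small secreted or luminal proteins that rise in ER stress. Creld2 ran from 13.52 to 15.47 in WT CONT livers and was 13.32, 13.31, 13.12, 14.84 and 13.79 in WT PCN livers, a change of -0.67 ± 0.32 (SE, adjusted p = 0.142), with -0.55 in Pxr-/- mice (adjusted p = 0.307). In WT mice its change was -0.27 in washing batch 1, which holds replicate 4, and -1.19 in batch 2. Manf had -0.24 and -0.30 (adjusted p = 0.501 and 0.461), and -0.40 in WT mice without replicate 4 (adjusted p = 0.225).

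The translocon and signal peptidase genes, which carry new proteins into the ER and trim them, held no call. Their 7 changes ran from -0.21 to 0.02 in WT and from -0.20 to 0.10 in Pxr-/- mice, with medians of -0.03 and -0.14. The narrowest estimate was that of Spcs1, -0.02 with an interval from -0.15 to 0.10 in WT mice. Sec61a1, the pore of the translocon, had -0.10 (interval -0.32 to 0.12) and -0.18 (interval -0.39 to 0.03). Sec61b, another translocon subunit, had -0.03 and -0.11, and Ssr1 and Ssr3, of the translocon-associated TRAP complex, had -0.07 and -0.21 in WT and -0.20 and -0.16 in Pxr-/- mice. The signal peptidase subunits Sec11c and Spcs2 both had 0.02 in WT mice, and -0.10 and -0.14 in Pxr-/- mice. Over the 34 genes, 21 of the WT and 24 of the Pxr-/- intervals lay within 1.5-fold either way, and the median interval reached 0.28 and 0.27 log2 units to each side of the estimate.

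For the difference of the PCN effects between the genotypes, the limma fit called 0 of 34 genes higher in WT and 0 lower, against 0.808% and 0.242% of all genes measured. At an unadjusted p under 0.05 there were 2 genes, Sel1l and Ppib, where all genes had 3171 of 21047. The median difference was -0.06, but 0.02 with the processed signal and with median scaling and 0.10 in the deposited log2 values, so it had no stable sign. In all, 22 of 34 intervals lay within 1.5-fold. For Derl3 the interval ran from -2.92 to 0.98, which leaves room for a large difference either way.

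Between the control groups, Pxr-/- CONT against WT CONT, limma again called 0 of 34 genes higher and 0 lower, against 0.228% and 0.0808% of all genes. Yet 31 of 34 genes lay lower in Pxr-/- CONT livers, against 51.4% of all genes. The median change of the 34 was -0.15, where all genes had -0.00, and 8 of 34 had an unadjusted p under 0.05, against 2565 of 21047 genes. The lowest were Derl3 (-0.79), Creld2 (-0.67), Dnajb9 (-0.51), Hspa5 (-0.39) and Manf (-0.39), with adjusted p values from 0.256 to 0.68. The exceptions above 0 were Herpud1 (0.22), Derl2 (0.05) and Calr (0.02). Related genes outside the set leaned the same way, so the lean was not particular to it. Lower were 20 of 21 cytosolic heat shock genes (median -0.17) and 21 of 28 other luminal chaperones and folding enzymes (-0.05). The same held for 20 of 26 other translocon, signal recognition and glycosylation genes (-0.08) and 15 of 20 other ERAD genes (-0.09). This comparison uses the WT CONT mice that also serve as controls for WT PCN, and the Pxr-/- CONT mice that serve for Pxr-/- PCN, so the signs in the 3 comparisons are not independent. In bulk liver, fewer cells of a type and less RNA per cell cannot be told apart.

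The genes shared a spread from mouse to mouse that the choice of genes did not use. After the group means and the washing batch had been taken out, the deviations of Creld2 followed those of Hspa5 with a Pearson r of 0.92 over 23 arrays (Spearman 0.91), Manf with 0.88, Hyou1 with 0.81, Hsp90b1 with 0.77 and Sel1l with 0.77. Over the 33 genes other than Hspa5 the median r was 0.51, and 17 of 33 (51.5%) had an r above 0.5, where 2.94% of the 20958 other genes did, with a median of -0.00. Without WT CONT replicate 1 and WT PCN replicate 4, the arrays with the largest Hspa5 deviations, the median was 0.38 and 13 of 33 were above 0.5. Herpud1 went the other way, with -0.44 (Spearman -0.44). Dnajb9 (-0.19) and Atf6 (-0.15, Spearman -0.10) had only weak negative values and did not follow Hspa5. The Dnajb9 value came to 0.00 without those arrays, while Herpud1 kept -0.38. The points share arrays, labelling and normalization, so these values describe how the genes moved together and are no test.

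**Figure D4:**
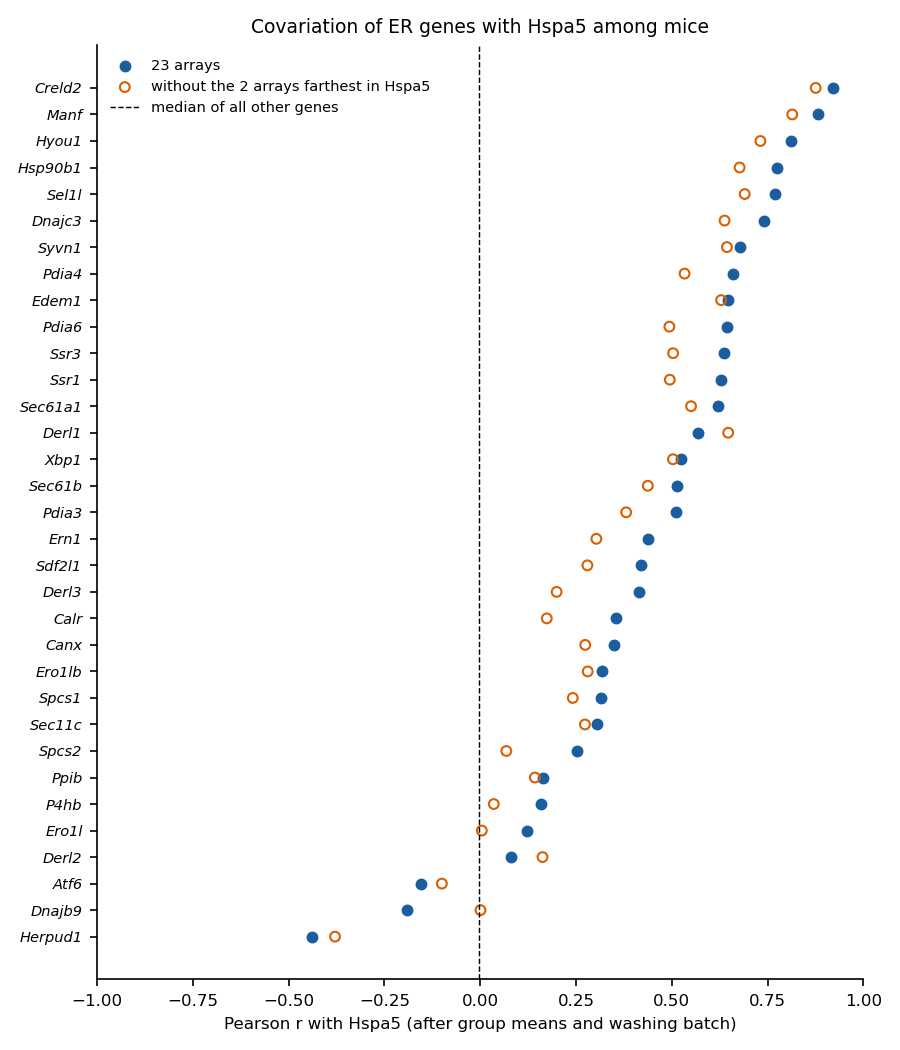
Pearson r between each ER gene (y axis) and Hspa5 over the arrays, after group means and washing batch were taken out, for all 23 arrays (filled) and without the 2 arrays farthest from the median in Hspa5 (open). The dashed line is the median of all other genes, near 0; Creld2 (0.92) and Manf (0.88) head the list, and Herpud1 (-0.44) ends it.

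Promoter sequence offered a grouping independent of the arrays. RefSeq windows of 300 bases (250 before the start site and 50 after it, GRCm38.p6) were at hand for 29 of the 35 genes. They were searched on both strands for the ER stress element, CCAAT and CCACG with 9 bases between them, as the promoters of chaperone genes are known to hold it. It was found in 10 of 29 genes (34.5%), against 39 of all 32851 windows (0.119%). The first share counts genes, 2 of them with several windows, and the second counts single windows. The set was picked by name from the kind of gene known to hold the element, so this excess is no test. The ER stress element II, ATTGG and CCACG with 1 base between, was found in 1 of 29, Herpud1, against 0.0365% of all windows, and the core of the UPR element, TGACGTGG, in 0 of 29, against 0.676%. The ER stress element and element II share the letters CCACG but did not overlap in these windows. The matches are shown in the motif's own direction with 10 bases on each side, the spaced motif letters in capitals, since the grouping of the genes below rests on these letters.
Hspa5, chr2:34772025-34772043: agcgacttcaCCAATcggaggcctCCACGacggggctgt
Hsp90b1, chr10:86705638-86705656: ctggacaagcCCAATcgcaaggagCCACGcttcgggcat
Hsp90b1, chr10:86705533-86705551: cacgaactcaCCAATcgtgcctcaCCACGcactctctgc
Calr, chr8:84847075-84847093: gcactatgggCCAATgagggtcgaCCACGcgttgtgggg
Canx, chr11:50325800-50325818: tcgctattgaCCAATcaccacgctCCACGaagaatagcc
Pdia6, chr12:17266491-17266509: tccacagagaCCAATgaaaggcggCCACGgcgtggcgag
Dnajc3, chr14:118937827-118937845: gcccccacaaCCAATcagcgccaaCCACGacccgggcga
Creld2, chr15:88819520-88819538: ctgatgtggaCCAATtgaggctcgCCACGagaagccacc
Syvn1, chr19:6046532-6046550: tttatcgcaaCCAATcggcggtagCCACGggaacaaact
Derl3, chr10:75893242-75893260: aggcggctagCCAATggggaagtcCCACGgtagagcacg
Ero1lb, chr13:12565682-12565700: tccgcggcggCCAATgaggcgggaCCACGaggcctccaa
Herpud1 (element II), chr8:94386377-94386387: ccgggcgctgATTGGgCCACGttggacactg

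The coordinates cover the motif without its flanks, on the plus strand for Hspa5, Calr, Pdia6, Dnajc3, Syvn1, Herpud1 and the second Hsp90b1 site, and on the minus strand for the others. Counted from the start site, the first motif base lay between -212 (Hsp90b1) and -44 (Syvn1), and at -65 in Hspa5. Among the genes called with PCN, the windows of Sel1l, Xbp1 and Dnajb9 held none of these motifs in the letters searched.

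The changes with PCN are given here by that grouping as a description, with no test. In WT mice all 10 had negative changes, with a median of -0.36, while the 18 measured genes that had a window and no such element had a median of -0.05, with 12 negative. Without WT PCN replicate 4 these medians were -0.47 and -0.08. In Pxr-/- mice 9 of the 10 were negative, the exception being Canx (0.07), with a median of -0.26, against -0.08 and 10 of 18. None of the 10 was called in either genotype, and 3 of them had an adjusted p of at most 0.05 in WT mice (Dnajc3, Ero1lb and Syvn1). The 12 measured genes outside the set that held the element had medians of -0.05 in WT and -0.08 in Pxr-/- mice, and the 11837 genes with a window and without the element -0.02 and -0.01. In Pxr-/- CONT against WT CONT livers the medians were -0.22 with and -0.13 without the element. The 18 genes without the element include Herpud1, which holds element II, and Sec61b, Ssr1, Ssr3, Spcs1 and Spcs2. None of the 10 is a translocon or signal peptidase gene, so the grouping partly follows gene role. The part of role in these medians was not tested. Hyou1 and Manf had no window and are in neither group. A match is a string of letters, and binding at these sites was not measured.

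**Figure D5:**
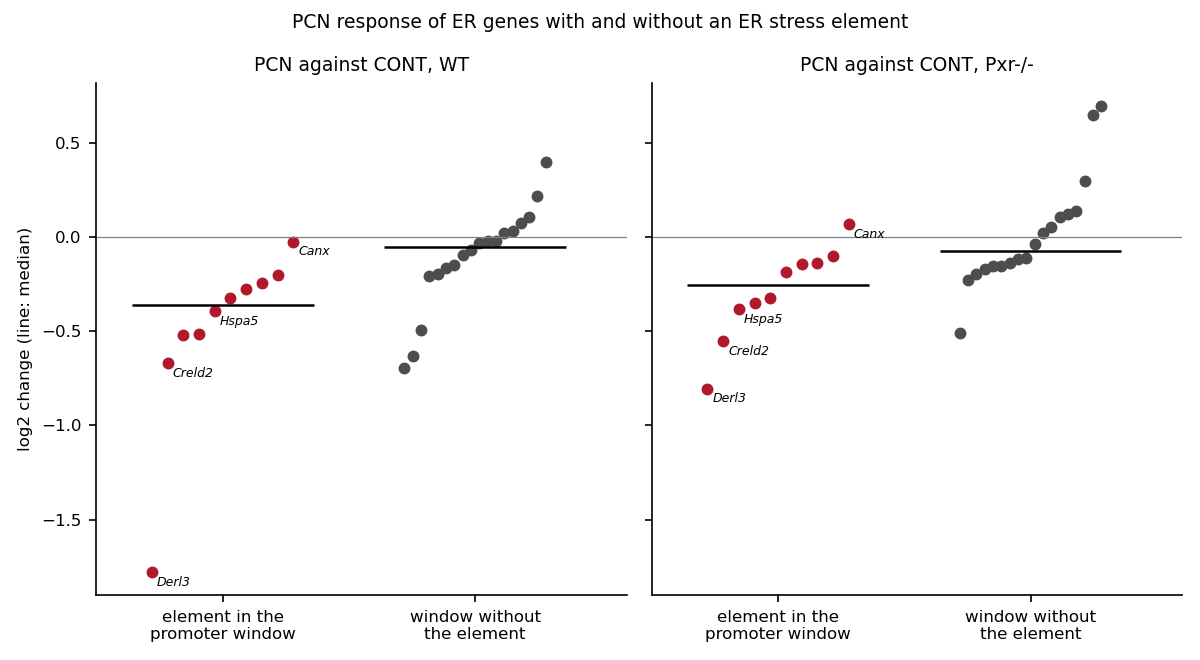
Log2 change with PCN (y axis) of ER genes with an ER stress element in the promoter window (10 genes, red) and with a window and no such element (18 genes, grey), in WT mice (left) and Pxr-/- mice (right); the lines are medians. With the element the medians were -0.36 and -0.26, and without it -0.05 and -0.08.

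The rest of the secretory and stress machinery was read from 7 lists of other genes. In the PERK, ATF4 and CHOP arm, 3 of 16 genes rose and 1 fell in WT mice, and 1 rose and 1 fell in Pxr-/- mice. Atf3, a stress-induced transcription factor, rose in both, by 1.53 ± 0.18 and 0.76 ± 0.17 (SE, adjusted p = 5.14e-06 and 0.0113). Trib3, a pseudokinase that ATF4 and CHOP induce, fell by 1.75 ± 0.28 in Pxr-/- mice (SE, adjusted p = 0.00136) and had -0.44 in WT mice (adjusted p = 0.303). Cebpb, a liver transcription factor, rose by 0.68 in WT mice. The remaining calls, named after their values had been seen, were Nupr1 (0.60) and Atf5 (-0.60), stress-responsive regulators, in WT mice. Atf5 stayed called in 4 of 12 other settings and 15 of 23 fits with 1 array left out, and Nupr1 in 10 of 12 and 19 of 23. Atf3 stayed called in WT mice throughout, and in Pxr-/- mice in 9 of 12 settings and 23 of 23 fits. The factors at the head of the arm did not pass: Ddit3 (CHOP) had -0.25 and 0.05 (adjusted p = 0.201 and 0.885), and Atf4 -0.10 and -0.07, with intervals within 1.5-fold.

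Of 13 other sensors and ER stress factors 1 rose in each genotype. Bhlha15 (Mist1), a factor of secretory cells and a target of XBP1, rose by 1.87 ± 0.33 in WT mice (SE, adjusted p = 0.000382) and had 0.78 in Pxr-/- mice (adjusted p = 0.145). Its probe was dim, with mean log2 signals of 6.35 in WT CONT and 5.72 in Pxr-/- CONT livers. It was well above background on all WT arrays, but on 4 of 6 Pxr-/- CONT and 5 of 6 Pxr-/- PCN arrays. Creb3l2, a membrane-bound factor that raises coat genes for ER export, rose by 0.80 in Pxr-/- mice (adjusted p = 0.0014) and had 0.54 in WT mice (adjusted p = 0.00646, under the fold limit). Of 24 export and retrieval genes, Kdelr3 (0.73), a receptor that returns ER residents, and Sar1b (0.59), the small GTPase of the COPII coat, rose in WT mice, and none passed in Pxr-/- mice. Sar1b lay close to the fold limit and stayed called in 8 of 12 other settings and 15 of 23 fits with 1 array left out. Kdelr3 stayed called in 10 of 12 settings, between 0.47 and 1.48 over them, and in 23 of 23 fits, and its probe was dim, well above background on 5 of 6 WT CONT and 2 of 6 Pxr-/- CONT arrays. Of 28 other luminal chaperones and folding enzymes, Ppic, a prolyl isomerase, rose in both (0.95 and 0.68). Of 21 cytosolic heat shock genes, Hspa1a rose in WT mice (1.11, adjusted p = 0.0112), though not without WT PCN replicate 2 (0.86, adjusted p = 0.0527) or in washing batch 1 alone (0.42). None of 20 other ERAD genes or of 26 other translocon, signal recognition and glycosylation genes passed in either genotype, with medians between -0.02 and 0.02. None of the genes in these lists passed for the difference between the genotypes or between the control groups.

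Other cell types in the livers were read from marker lists. The summed level of a list is the log2 of the linear signals added over its measured markers, so the brightest markers weigh most. All 8 hepatocyte markers were measured, and their summed level ran from 20.32 to 20.59 in WT CONT, 20.37 to 20.49 in WT PCN, 20.45 to 20.54 in Pxr-/- CONT and 20.46 to 20.56 in Pxr-/- PCN livers. Of these, 1 passed, Apoa1, an apolipoprotein of the secreted lipoproteins, which rose in Pxr-/- mice (0.62, adjusted p = 0.000955). Plasma cells and pancreatic acinar cells, which are rich in several of the ER genes, had no marker that passed in any comparison, of 6 and 5 measured: Tnfrsf17 and Cd79a, and 5 of 10 acinar markers, were not well above background, and summed plasma cell levels overlapped (9.34 to 10.41 in WT CONT and 9.18 to 9.91 in WT PCN livers). The collagens Col1a1 and Col3a1, stellate cell markers, rose with PCN, Col1a1 by 3.17 in WT and 1.96 in Pxr-/- mice and Col3a1 by 2.18 and 1.22, of 8 markers, of which 6 and 8 lay higher. The call of Col3a1 in Pxr-/- mice held in 8 of 12 other settings and 16 of 23 fits with 1 array left out. The summed stellate level ran from 14.48 to 15.18 in WT CONT, 14.91 to 15.34 in WT PCN, 14.28 to 14.95 in Pxr-/- CONT and 14.35 to 15.31 in Pxr-/- PCN livers. Of 6 cholangiocyte markers, of which 4 lay higher in WT and 5 in Pxr-/- mice, only Sox9 passed. It rose in WT mice (0.76) and had 0.62 in Pxr-/- mice (limma adjusted p = 0.0607). The summed cholangiocyte level ran from 10.70 to 12.28 in WT CONT and 11.80 to 13.00 in WT PCN livers. In Pxr-/- livers it ran from 10.99 to 11.81 with corn oil and 11.29 to 12.57 with PCN. No Kupffer or endothelial marker passed. The part of these cells in the changes of Sel1l, Xbp1 and Dnajb9 was not tested.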

How the data were processed

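Liver RNA of 23 mice was hybridised to one-colour Agilent arrays on 8 slides, in 2 washing batches that each held every group, and the labels give 6 WT PCN mice where 5 arrays were analysed here. The authors deposited one scanner file per array, with linear spot intensity from Agilent Feature Extraction (version 10.10.1.1 in the submitters' processing notes, which also list limma), and a table of normalized log2 values, used here as an alternative. The study's methods give log2 median signal, a filter, a correction for washing batch and CrossNorm normalization. Here log2 median intensity was taken for 59305 non-control spots, and by choices made here 2225 spot values marked as outliers were dropped and the spots of a probe were averaged. A probe was kept if, in at least 1 group, over 50% of arrays read it well above background (32087 of 56605 probes), and kept probes were quantile normalized in place of CrossNorm. Group and washing batch were fitted with limma 3.58.1 in R 4.3.3 (18 residual degrees of freedom), with empirical Bayes moderation and Benjamini-Hochberg adjustment over the kept probes. The script was tested on simulated data.

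Between 29510 and 33321 probes were well above background per array, and normalized arrays correlated with an r from 0.977 to 0.996. The number of arrays limits the precision, and SDs are given with each mean. Probe coordinates are those of the files (mm9). Promoter windows were matched by symbol for 33 genes and by synonym for 2, and 29 had a window. All 35 genes are named. Those called, Hspa5, Xbp1, Ern1, Atf6 and some with a wide spread have the value of each array for the group of 5, and the lowest, median and highest or the range for groups of 6. Of the pathway lists at most the 3 called genes with the largest change were named, besides Ddit3 and Atf4, except that Nupr1 and Atf5 were added after their values were seen. The genes, lists and tests were chosen with earlier results of these data known. Alternatives covered the signal column, background correction, normalization, filter, batch and slide terms, replicate block, groups fitted, probe and call rule, and each array left out in turn. Same-numbered mice of different groups were checked for shared deviations. Protein sequences were not used here.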

Additional observations from a re-analysis of the deposited data

Results flagged for a closer look

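Of 136 groups of values tested for a lone array (34 genes in 4 groups), 6 held one whose gap to its neighbour was large against the range of its group, where chance gives about 1 in 20. Ero1lb accounted for 3 of them, in Pxr-/- CONT replicate 2 (the lowest, with a gap of 0.636 of the range), Pxr-/- PCN replicate 6 (the highest, 0.655) and WT PCN replicate 5 (the highest, 0.758). P4hb was lowest in Pxr-/- CONT replicate 2 (0.656), Spcs1 highest in Pxr-/- PCN replicate 4 (0.645), and Pdia4 highest in WT PCN replicate 4 (0.779), the mouse that stood apart over the whole set.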

How the results depend on the processing

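The genes called for PCN in WT mice numbered 0 with the processed signal and 0 with median scaling, where Sel1l passed on its adjusted p and missed the fold limit, 2 in washing batch 1 alone (Ero1lb and Xbp1), 3 in batch 2 alone (Creld2, Hspa5 and Sel1l), 2 when any kept probe counted (Sel1l and Xbp1), 4 by adjusted p alone, and between 1 and 6 with 1 array left out. The highest count came without WT PCN replicate 4, with 4 without WT CONT replicate 2 and 2 without WT CONT replicate 3 or 4. The calls over all 21047 genes in WT mice, 796 higher and 504 lower in the main fit, moved as well. They were 1051 and 878 with the processed signal and 814 and 525 with median scaling. In batch 1 alone they were 910 and 622, and in batch 2 alone 385 and 304. By adjusted p alone, 5060 of all genes passed. In Pxr-/- mice the count was 1 with no washing batch term (Xbp1), 0 in batch 1 alone, 0 in batch 2 alone, and between 0 and 3 with 1 array left out: 0 without Pxr-/- PCN replicate 4, and 1 without Pxr-/- PCN replicate 3 or Pxr-/- CONT replicate 1. Over all genes the Pxr-/- calls fell from 300 higher and 181 lower to 36 and 19 in batch 1 alone. In batch 2 alone they were 49 and 44, so few genes of any kind passed within 1 batch. The median WT change of the 34 genes was 0.0579 in the deposited log2 values, which also moved the median of all genes from -0.02 to 0.11 and called Xbp1 in place of Sel1l. That table moved the share of higher calls over all genes from 61.2% to 84.3% in WT mice, from 62.4% to 73.6% in Pxr-/- mice, from 76.9% to 87.7% for the difference and from 73.8% to 45.0% between controls. The cause of these shifts was not tested. A fit within 1 batch uses fewer arrays, and the part of that in the counts was not tested either. The count for the difference between genotypes and for the control groups was 0 under each alternative run. With the replicate number as a block, Sel1l had -0.61, Xbp1 0.69 and Dnajb9 0.65, and no call of these genes changed; the numbers did not pair the mice, since 13 of 33 pairs had an r above 0.1 and 7 of 23 arrays correlated best with their own number. No called change reversed its sign.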
